A study of Mus musculus with 4 samples.

Results

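Dendritic cell genes were examined in RNA from tumor-associated macrophages (TAMs) of MCA205 tumors, a subcutaneous mouse fibrosarcoma. The genes were Xcr1, Clec9a, Batf3, Flt3, Zbtb46, Cd209a, Ccr7, Fscn1, Ccl17 and Ccl22, chosen by name as genes of type 1 and type 2 conventional dendritic cells (cDC1 and cDC2), of conventional dendritic cells in general, and of migratory dendritic cells. Their rows were found through the Ensembl identifier and its symbol in GENCODE M21, which gave 10 of 10 genes among the 54146 in the count table. TAMs came from female mice of 8 to 16 weeks that drank water without drug (labelled vehicle, here control) or with propranolol, a nonselective beta blocker, at 0.5 g/L from the day the tumor cells were injected. Mice of both groups carried MCA205 tumors, and no other allele or agent is named for the groups. CD45+ cells were enriched with magnetic beads and live CD11b+F4/80+ cells were then sorted, without a marker of dendritic cells in the gate. Each group had 2 libraries of poly-adenylated RNA, called biological replicates in the study, and whether a library held 1 tumor or several was not given in the sources used here. The counts added up to 13798249 and 23018142 in control replicates 1 and 2, and to 39818103 and 16424081 in propranolol replicates 1 and 2. Adgre1, the gene of F4/80, had 975 and 1008 CPM (counts scaled to a common library size) in control and 1151 and 1100 CPM in propranolol libraries. Its level follows from the gate and does not check the macrophage label. Csf1r, a macrophage marker outside the gate, had 2553 and 2464 CPM in control and 3595 and 3981 CPM in propranolol libraries. The fibroblast and tumor cell marker Col3a1 reached 1294 CPM in control replicate 1. The dendritic cell gene with the highest CPM in control, Fscn1, averaged 42.0 CPM there. The data therefore describe low-level transcripts in a macrophage sort, not purified dendritic cells.

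Conventional dendritic cells take up antigen in tissues and carry it to lymph nodes, where they prime T cells. cDC1 develop under Batf3 and Irf8, excel at cross-presentation to CD8+ T cells, and bear the chemokine receptor Xcr1 and the dead-cell receptor Clec9a. cDC2, which are more diverse, depend in part on Irf4 and mainly prime CD4+ T cells. On maturation, cells of both types induce Ccr7, the receptor that leads them to lymph nodes, together with the actin-bundling protein Fscn1 and the chemokines Ccl17 and Ccl22, which attract Ccr4+ T cells. Macrophages can transcribe several of these genes too, and in bulk RNA fewer cells of a type and less RNA per cell cannot be told apart.

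In TAMs from propranolol treated mice, Xcr1, Clec9a, Cd209a and Fscn1 fell, by 1.57-fold to 2.86-fold, and none of the 10 genes rose. Changed means an edgeR adjusted p under 0.05 and a difference of more than 1.5-fold. Both cDC1 surface receptors and the cDC2 lectin Cd209a were thus lower, although Xcr1 and Cd209a did not pass once the trend with gene GC content was removed, while the cDC1 transcription factor Batf3 (log2 fold change 0.07) and the lymph node homing receptor Ccr7 (-0.19) did not pass the test. The 4 genes that fell (2 without control replicate 1) were 40.0% of the 10, whereas 15.6% of all 14688 tested genes fell, 12.2% rose and 27.8% changed either way. The median log2 fold change was -0.67 over the 10 genes and -0.02 over all tested genes. All 10 had enough counts for the test, although a library held as few as 24 and at most 981 counts of one of them. In 6 of the 10, both propranolol libraries lay below both control libraries, as they did in 36.9% of all tested genes, while the groups were apart in either direction in 72.6%. The summed level of the 10 genes was 114 and 104 CPM in the control libraries against 84.8 and 67.6 CPM in the propranolol libraries. Fscn1 was the largest part of each sum, with 50.4 and 33.6 CPM in control and 27.0 and 26.3 CPM in propranolol libraries.

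**Figure D1:**
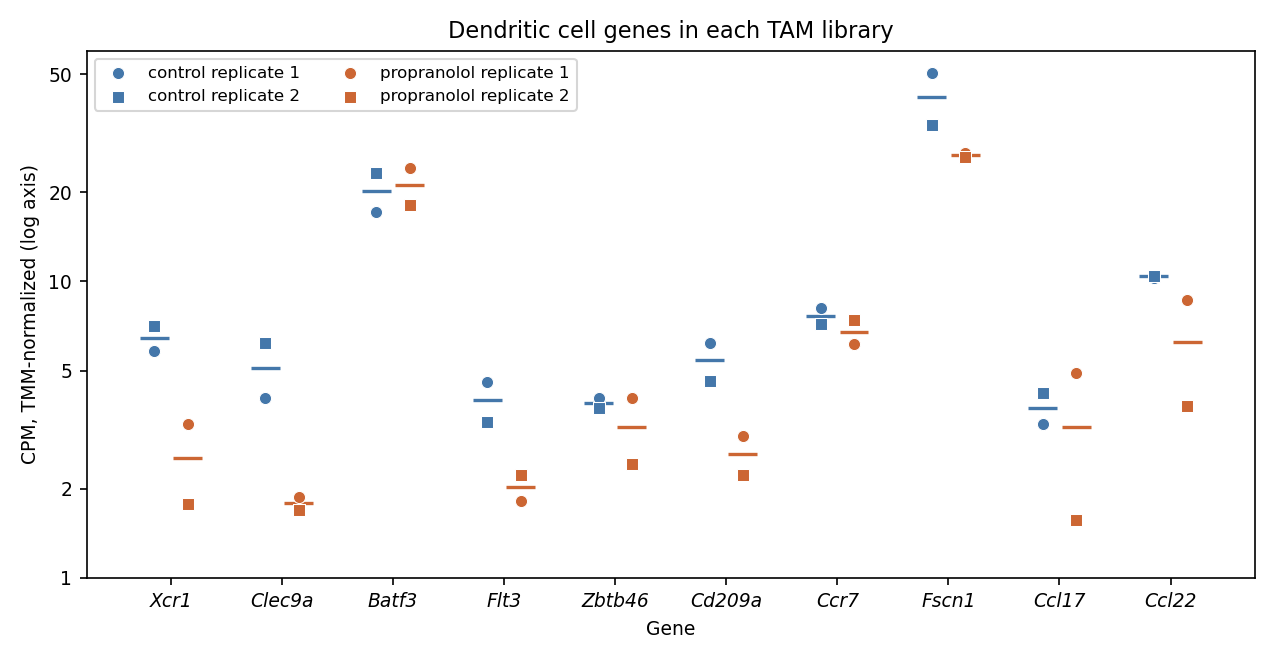
Level of each dendritic cell gene in CPM, normalized with TMM factors, on a log axis, with 1 point per library (circles replicate 1, squares replicate 2) and a line at the mean of each group (blue control, orange propranolol, n = 2). Both propranolol libraries lie below both control libraries for Xcr1, Clec9a, Flt3, Cd209a, Fscn1 and Ccl22, and the groups overlap for Batf3, Zbtb46, Ccr7 and Ccl17.

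The sequence before the start site is shown for the 4 genes that fell, because they moved the same way. Each is taken from RefSeq and holds the 250 bases upstream of the annotated start on GRCm38.p6, printed 5′ to 3′ on the strand of the gene, with matches to TATAAA on either strand in capitals. They lie at chr9:123862030-123862279 (minus strand, Xcr1), chr6:129408612-129408861 (plus strand, Clec9a), chr8:3748985-3749234 (minus strand, Cd209a) and chr5:142960105-142960354 (plus strand, Fscn1), of which the last reaches 12 bases into the gene as GENCODE draws it.
Xcr1: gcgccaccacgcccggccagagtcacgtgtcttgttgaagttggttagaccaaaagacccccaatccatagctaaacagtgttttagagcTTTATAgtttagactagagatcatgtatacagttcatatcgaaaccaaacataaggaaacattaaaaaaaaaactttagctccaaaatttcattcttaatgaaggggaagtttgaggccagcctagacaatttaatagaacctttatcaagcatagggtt
Clec9a: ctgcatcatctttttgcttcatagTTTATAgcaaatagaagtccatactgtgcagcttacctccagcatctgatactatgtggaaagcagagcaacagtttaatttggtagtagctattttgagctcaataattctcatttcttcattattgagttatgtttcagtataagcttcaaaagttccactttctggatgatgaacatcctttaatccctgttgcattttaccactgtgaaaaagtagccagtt
Cd209a: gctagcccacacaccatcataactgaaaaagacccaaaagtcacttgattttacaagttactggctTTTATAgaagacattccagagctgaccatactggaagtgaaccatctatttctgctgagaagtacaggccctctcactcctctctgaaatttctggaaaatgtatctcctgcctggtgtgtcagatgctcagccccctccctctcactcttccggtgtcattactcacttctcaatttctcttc
Fscn1: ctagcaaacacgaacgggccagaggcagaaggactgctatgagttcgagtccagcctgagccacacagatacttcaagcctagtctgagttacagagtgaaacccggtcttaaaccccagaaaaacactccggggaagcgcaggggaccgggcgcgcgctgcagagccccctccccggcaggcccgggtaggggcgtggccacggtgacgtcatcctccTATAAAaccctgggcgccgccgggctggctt

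These windows differed in composition. GC content was 38.8% for Xcr1, 35.6% for Clec9a and 44.8% for Cd209a, below the median of 52.4% over 32851 mouse promoters, and 62.4% for Fscn1. The Fscn1 window held 18 CpG dinucleotides, against 5, 0 and 1 in those of Xcr1, Clec9a and Cd209a and a median of 6. Of the 10 genes, 9 had a RefSeq promoter, and Ccr7 had none in the table. 4 motifs, chosen with the results known, were searched on both strands. TATAAA, the TATA box letters, occurred in 4 of the 9 windows, those printed above, and in 12.4% of all promoters. It began 31 bases before the start of Fscn1, on the gene's strand, but 160, 226 and 184 bases before those of Xcr1, Clec9a and Cd209a, there on the opposite strand. The AP-1 letters TGANTCA occurred in the window of Zbtb46 (6.75% of all promoters), and the PU.1 core GAGGAA in those of Batf3 and Ccl17 (23.3%). The IRF pair, GAAA followed after any 2 bases by GAAA, was in none of the 9 windows (2.98% of all promoters). Each window with a match held 1 match, so that none overlapped. The RefSeq start of Zbtb46 lay 35038 bases from the end that GENCODE gives the gene. These matches describe letters in the windows and are not binding sites.

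Xcr1, the receptor by which cDC1 follow Xcl1, lies on the minus strand of chromosome 9 (chr9:123852315-123862029, mm10, ENSMUSG00000060509.4). It had 86 and 177 counts in control replicates 1 and 2 and 120 and 27 counts in propranolol replicates 1 and 2, which were 5.80, 7.06, 3.30 and 1.77 CPM. Both propranolol libraries were below both controls, and propranolol replicate 2 was the lowest. The mean fell from 6.43 ± 0.888 CPM (SD, n = 2) to 2.53 ± 1.08 CPM (SD, n = 2). The log2 fold change was -1.30 ± 0.34 (SE), with an edgeR adjusted p of 0.0125. The 2 propranolol libraries differed 1.87-fold from each other, and leaving one of them out gave -0.93 (replicate 2 removed) or -1.86 (replicate 1 removed). With the trend of each library on gene GC content removed, the log2 fold change was -0.67, and the adjusted p of 0.171 no longer passed.

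Clec9a, a lectin receptor that recognizes actin exposed on dead cells, had the largest change of the 10 genes with all libraries and TMM normalization (chr6:129408862-129424763, plus strand, ENSMUSG00000046080.17). Its counts were 60 and 155 in control and 68 and 26 in propranolol libraries, or 4.05, 6.18, 1.87 and 1.70 CPM. The propranolol libraries nearly coincided, and both lay below the lower control library. From 5.11 ± 1.51 CPM in control (SD, n = 2), the mean fell to 1.79 ± 0.118 CPM (SD, n = 2), a log2 fold change of -1.52 ± 0.35 (SE) with an edgeR adjusted p of 0.00656. Without control replicate 2, the deeper and higher of the controls, the log2 fold change was -1.15 and the adjusted p of 0.0507 just missed the threshold. Exons of Clec9a overlap those of Clec1b on the same strand, a gene with between 2 and 7 counts per library.

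Batf3, the transcription factor on which cDC1 depend, did not pass the test (chr1:191097847-191108945, plus strand, ENSMUSG00000026630.9). It had 17.1 and 23.2 CPM in control libraries and 24.1 and 18.1 CPM in propranolol libraries. The groups overlapped, and the lowest library was control replicate 1. The log2 fold change was 0.07 ± 0.19 (SE), with a 95% interval from -0.35 to 0.50 and an edgeR adjusted p of 0.791. Its sign turned without control replicate 1 (-0.06) and without propranolol replicate 1 (-0.16), and it was -0.23 with the GC trend of each library removed, where the test was not passed either.

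Flt3 and Zbtb46 are shared by conventional dendritic cells. Flt3, the receptor whose ligand drives dendritic cell development (chr5:147330741-147400489, minus strand, ENSMUSG00000042817.15), had 4.59 and 3.35 CPM in control and 1.82 and 2.23 CPM in propranolol libraries. The groups did not overlap, and here propranolol replicate 1 was the lowest. Means were 3.97 ± 0.875 and 2.02 ± 0.291 CPM (SD, n = 2 each). The log2 fold change of -0.98 ± 0.36 (SE) had an edgeR adjusted p of 0.0536, which just missed the threshold, and a 95% interval from -1.79 to -0.17. With replicate numbers as blocks it passed (-0.98, edgeR adjusted p = 0.0457). With a library left out it ran from -1.18 (adjusted p = 0.0315, without control replicate 2) to -0.69 (adjusted p = 0.284, without control replicate 1), and it did not pass without either propranolol library (-0.82, adjusted p = 0.196, and -1.09, adjusted p = 0.0796). Zbtb46, a transcription factor used to tell conventional dendritic cells from macrophages (chr2:181387762-181459426, minus strand, ENSMUSG00000027583.13), had 4.05, 3.75, 4.04 and 2.42 CPM in control replicates 1 and 2 and propranolol replicates 1 and 2. Propranolol replicate 1 lay between the controls, and propranolol replicate 2 was the lowest. The log2 fold change was -0.24 ± 0.34 (SE, 95% interval -1.0 to 0.53, edgeR adjusted p = 0.613), and it was 0.09 without propranolol replicate 2.

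Cd209a, a C-type lectin of cDC2 and of monocyte-derived cells, fell (chr8:3743397-3748984, minus strand, ENSMUSG00000031494.7). It had 92 and 116 counts in control and 109 and 34 counts in propranolol libraries, which were 6.20, 4.62, 3.00 and 2.23 CPM. Both propranolol libraries lay below both controls. Means were 5.41 ± 1.12 CPM in control and 2.61 ± 0.545 CPM in propranolol libraries (SD, n = 2 each), a log2 fold change of -1.02 ± 0.32 (SE) with an edgeR adjusted p of 0.0285. This call depended on single libraries. It was lost without control replicate 1 (-0.75, adjusted p = 0.149) and without propranolol replicate 2 (-0.81, adjusted p = 0.122), although the sign remained negative. It was also lost with the GC trend removed (-0.59, adjusted p = 0.203).

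Among the genes of migratory dendritic cells, Fscn1 fell and the other three did not pass the test. Fscn1 (chr5:142960343-142973185, plus strand, ENSMUSG00000029581.14) had 50.4 and 33.6 CPM in control and 27.0 and 26.3 CPM in propranolol libraries. The propranolol libraries agreed closely, whereas control replicate 1 was 1.5-fold above control replicate 2. Means were 42.0 ± 11.9 and 26.7 ± 0.462 CPM (SD, n = 2 each), and the log2 fold change was -0.65 ± 0.18 (SE) with an edgeR adjusted p of 0.0151. Without control replicate 1 it was -0.28 with an adjusted p of 0.298. Fscn1 is also transcribed in fibroblasts and tumor cells, cells that the CD45 enrichment and the CD11b+F4/80+ gate are meant to remove, and the same library stood apart in their markers. The summed level of 8 fibroblast and tumor cell markers was 3240 CPM in control replicate 1 against 1181, 674 and 726 CPM in control replicate 2 and propranolol replicates 1 and 2, led by Col1a1 (905, 375, 247 and 277 CPM) and Col3a1 (1294, 423, 212 and 225 CPM). Of the 8, 6 fell, namely Postn (-2.54), Dcn (-2.06), Col3a1 (-1.97), Pdgfra (-1.95), Col1a1 (-1.29) and Col1a2 (-1.20), 0 rose and 0 had no counts in a library, beside 15.6% of all tested genes that fell. With the GC trend of each library removed 5 fell, beside 4.97% of all tested genes, and Postn (-1.21) and Dcn (-0.87) did not pass. Their part in the Fscn1 result was not tested.

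Ccr7 (chr11:99144196-99155077, minus strand, ENSMUSG00000037944.8) had 8.16 and 7.17 CPM in control and 6.13 and 7.40 CPM in propranolol libraries. The groups overlapped, and the log2 fold change was -0.19 ± 0.23 (SE, 95% interval -0.70 to 0.33, edgeR adjusted p = 0.553). The receptor was detected in each library, with 113 to 223 counts. Ccl22 (chr8:94745590-94751699, plus strand, ENSMUSG00000031779.3) had 10.3 and 10.4 CPM in control and 8.66 and 3.80 CPM in propranolol libraries, so that the controls coincided and the propranolol libraries differed 2.28-fold. Its log2 fold change of -0.69 ± 0.32 (SE) had an edgeR adjusted p of 0.111. It ranged from -0.23 without propranolol replicate 2 to -1.45 without propranolol replicate 1. With replicate numbers as blocks it passed (-0.80, edgeR adjusted p = 0.0357). Ccl17, the neighboring chemokine gene (chr8:94810453-94812036, plus strand, ENSMUSG00000031780.2), had 3.30, 4.19, 4.90 and 1.57 CPM in control replicates 1 and 2 and propranolol replicates 1 and 2. The propranolol libraries were its highest and its lowest, 3.11-fold apart. The log2 fold change was -0.16 ± 0.46 (SE, 95% interval -1.19 to 0.86, edgeR adjusted p = 0.806) and turned to 0.41 without propranolol replicate 2. For Ccr7, Ccl17 and Ccl22, as for Batf3 and Zbtb46, the difference between propranolol libraries exceeded the difference between group means.

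**Figure D2:**
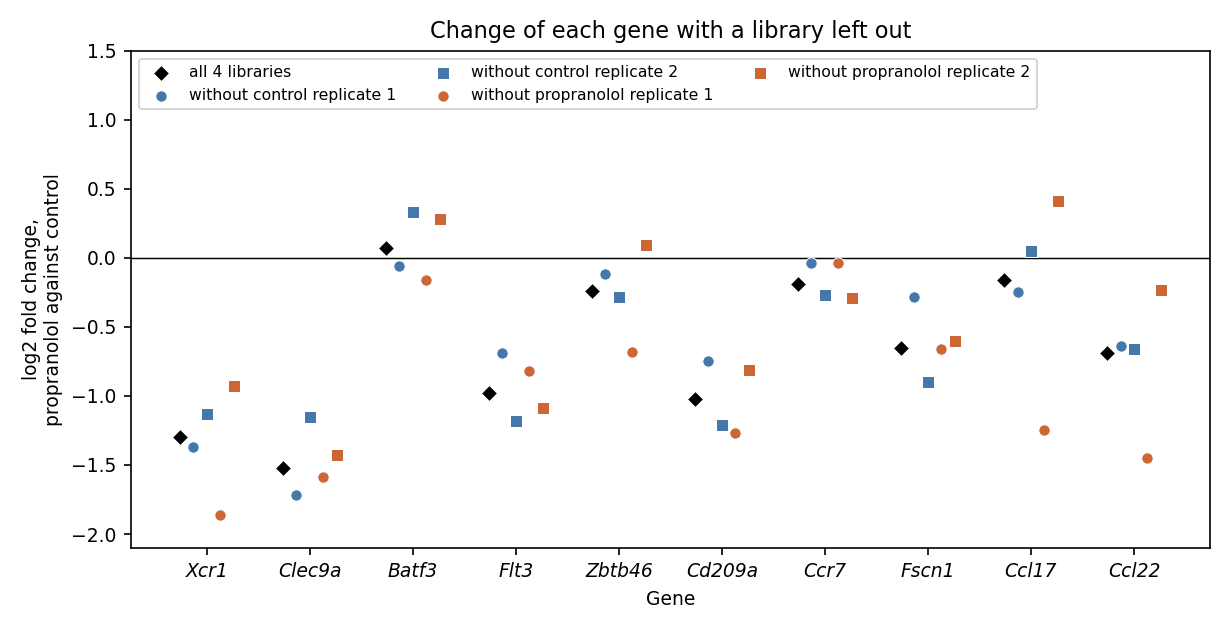
Log2 fold change of each dendritic cell gene, propranolol against control, with all 4 libraries (black) and with 1 library left out (blue, a control library; orange, a propranolol library). Xcr1 and Clec9a stay at or below -0.93 throughout, while Fscn1 moves to -0.28 without control replicate 1 and Ccl17 runs from -1.25 to 0.41.

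The lowest library was propranolol replicate 2 for 7 of the 10 genes, propranolol replicate 1 for Flt3 and Ccr7, and control replicate 1 for Batf3. Per length, in TPM (counts per base of exon, scaled to a common sum) averaged over the control libraries, the order was Fscn1 (46.2), Batf3 (42.0), Ccl17 (24.2), Ccl22 (14.8), Ccr7 (12.9), Cd209a (11.3), Clec9a (5.17), Xcr1 (4.80), Flt3 (2.13) and Zbtb46 (1.52). Neighbors such as Fscn1 (54.8 and 37.6 TPM) and Batf3 (35.1 and 48.8 TPM), or Clec9a (4.02 and 6.32 TPM) and Xcr1 (4.26 and 5.34 TPM), overlapped between control libraries. Flt3 and Zbtb46, which conventional dendritic cells share, were thus the least abundant per length of the 10 transcripts in control TAMs. In CPM, without regard to length, Ccl17 had the lowest control mean (3.74), just below Zbtb46 (3.90) and Flt3 (3.97).

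The calls were also read with the trend of each library on gene GC content removed, which left 1851 changed genes in the whole table in place of 4084. The 10 genes covered transcript GC contents from 42.0% (Xcr1) to 60.7% (Batf3), around a median of 49.6% over all tested genes. Xcr1, Clec9a (44.2%) and Cd209a (44.3%) were on the low side, and Fscn1 (60.6%) on the high side. After the correction, Clec9a (log2 fold change -1.08, edgeR adjusted p = 0.0488) and Fscn1 (-0.96, adjusted p = 0.00555) still fell, whereas Xcr1 and Cd209a did not pass the test, as given above. Batf3 turned from 0.07 to -0.23. The 2 genes that fell compare with 4.97% of 14681 tested genes that fell, 7.64% that rose and 12.6% that changed either way. The correction moved the median of all tested genes by 0.11 to 0.09, and that of the 10 genes was -0.63. All 10 log2 fold changes were negative with it, and 9 of 10 without it.

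**Figure D3:**
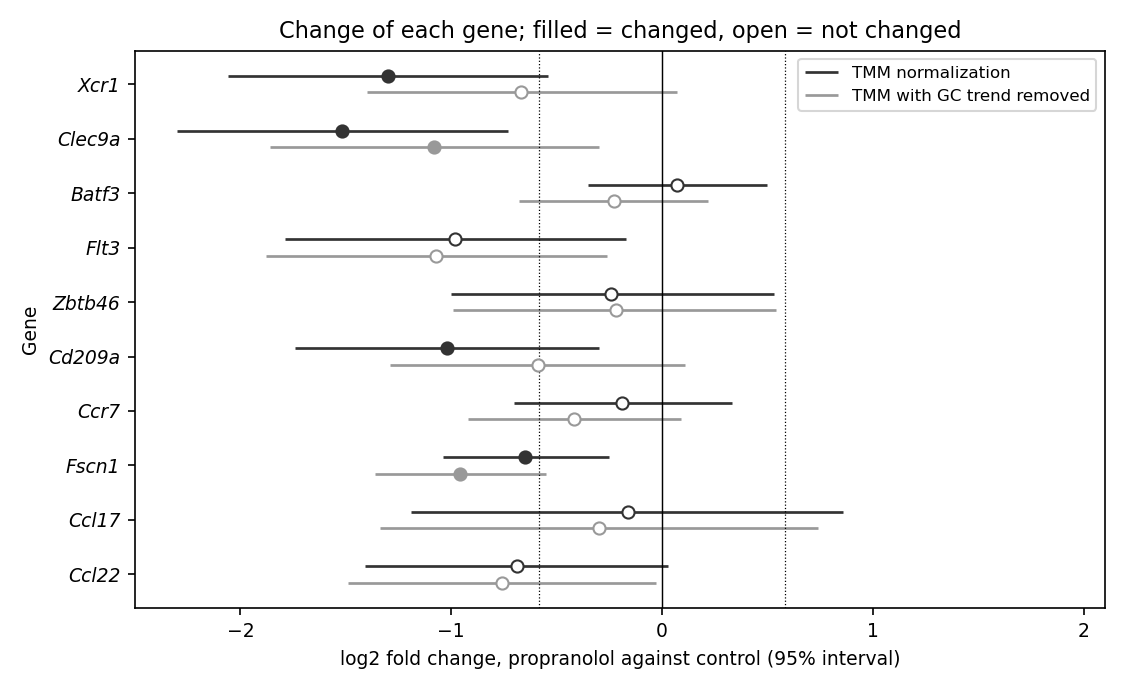
Log2 fold change of each dendritic cell gene, propranolol against control, with its 95% interval, for TMM normalization (black) and with the GC trend of each library removed (grey). Filled points changed (edgeR adjusted p under 0.05 and beyond the dotted lines at 1.5-fold), which holds for Xcr1, Clec9a, Cd209a and Fscn1 with TMM normalization and for Clec9a and Fscn1 with the GC trend removed.

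Wider lists of dendritic cell genes held both directions, and their counts stand beside the 15.6% of all tested genes that fell and the 12.2% that rose, or 4.97% and 7.64% with the GC trend removed. Of 14 tested genes of a cDC1 list of 15, 4 fell and 0 rose, with a median log2 fold change of -0.29. Besides Xcr1 and Clec9a these were Tlr3, the receptor for double-stranded RNA, which had 29.4 and 30.5 CPM in control against 10.9 and 9.23 CPM in propranolol libraries (-1.56 ± 0.15 SE, edgeR adjusted p = 0.000125), and the inhibitory receptor Btla (-2.23 ± 0.52 SE, adjusted p = 0.00683), which B and T cells also transcribe. Xcr1, Clec9a and Tlr3 fell together, but the most abundant genes of the list, Naaa (0.28) and Tap1 (0.16), did not change by 1.5-fold, and the summed level of the list was 1665 and 1719 CPM in control against 1985 and 1890 CPM in propranolol libraries. These genes, and the cDC1 regulator Irf8 (411 and 426 CPM in control, 529 and 501 CPM in propranolol libraries), were far above Xcr1 and Clec9a. With Tap1 at 456 and 482, Naaa at 308 and 321 and Wdfy4 at 257 and 273 CPM in control, these genes made up most of the sum. The sum therefore says little about Xcr1 and Clec9a, and which sorted cells transcribed the abundant genes was not tested. With the GC trend removed, Clec9a and Tlr3 fell and Ifi205 (0.84) and Cd24a (1.0) rose.

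Of 12 tested genes of a cDC2 list of 13, Cd209a fell, the receptor Notch2 rose (0.71 ± 0.12 SE, edgeR adjusted p = 0.00105) and 10 did not pass, with a median of 0.03. The most abundant were Sirpa (0.22), an inhibitory receptor of myeloid cells, and the lectin Mgl2 (0.19). Neither Cd209a nor Notch2 was called without propranolol replicate 2 or with the GC trend removed.

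Of 23 tested genes of a migratory list of 24, 6 fell and 0 rose, with a median of -0.55. With Fscn1 these were the maturation marker Cd83 (141 and 137 CPM in control, 84.9 and 92.7 CPM in propranolol libraries, -0.64 ± 0.10 SE, edgeR adjusted p = 0.000871), the inhibitory ligand Cd200 (-2.12), Tmem123 (-0.77), the adaptor Samsn1 (-0.72) and the transcription factor Stat4 (-1.27), which T and NK cells also transcribe. By TPM averaged over all libraries, the most abundant genes of this list were Marcksl1 (0.33) and Zmynd15 (-0.09). In control alone Tmem123, which fell, exceeded Zmynd15, with 271 TPM against 227 TPM. Fscn1, Cd83, Cd200 and Stat4 still fell with the GC trend removed, as did the calcium channel subunit Cacnb3 (-0.84), whereas Tmem123 (-0.22) and Samsn1 (-0.21) did not pass.

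Of 24 tested core genes of conventional dendritic cells, 9 fell and 1 rose, with a median of -0.47. Those with the largest changes were Btla, P2ry10 (-1.37), Hmgn3 (-1.28), the peptidase Dpp4 (-1.26), the growth factor receptor Kit (-1.21) and Slamf7 (-1.13). Most T and NK cell markers, given below, also fell in these libraries, and the part of those cells in the changes of this list was not tested. By TPM averaged over all libraries, the most abundant were the cytoskeletal adaptor Pstpip1 and Anpep (log2 fold change 0.11), at about 160 TPM each. Pstpip1 was the gene that rose (1.09 ± 0.10 SE, edgeR adjusted p = 0.000103). In control alone Anpep was higher, with 167 TPM against 114 TPM for Pstpip1. With the GC trend removed, 3 of the 24 fell, namely Kit (-1.09), Slamf7 (-0.83) and Adam19 (-0.83), and Pstpip1 (0.75) rose. Btla (-1.46), Hmgn3 (-0.85), Dpp4 (-0.63) and P2ry10 (-0.13) then did not pass, and P2ry10 was close to 0. Of 9 tested genes of an 11-gene list of plasmacytoid dendritic cells, Bst2 (0.89) and Irf7 (0.76), both interferon-induced, rose, and Runx2 (-0.83) fell. With the GC trend removed Bst2 (0.59) and Runx2 (-0.85) were still called, while Irf7 (0.46) was below 1.5-fold. Siglech, which marks these cells, had between 3 and 12 counts per library, and Ly6d and Klk1 had no counts in at least 1 library. A list named for dendritic cell transcription factors held 16 genes, among them the receptor Notch2. Of these, Notch2 rose and 0 fell by the same rule, with a median of 0.02, and with the GC trend removed none was called. This count of 1 became 4 without control replicate 2, 2 without control replicate 1 and 2 without propranolol replicate 1. The most abundant were Spi1 (0.57), the gene of PU.1, and Irf8 (0.30).

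The lists shared genes. With the list of ligands and receptors described below, they held 101 genes, of which 92 were tested, 21 fell (22.8%) and 5 rose, with a median of -0.18. This share, over genes that include the 10, lay between the 40.0% of the 10 genes and the 15.6% of all tested genes. With the GC trend removed 12 fell and 5 rose. With either normalization the counts include Xcl1, which fell, and Csf2ra, which rose, from the list of ligands and receptors.

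**Figure D4:**
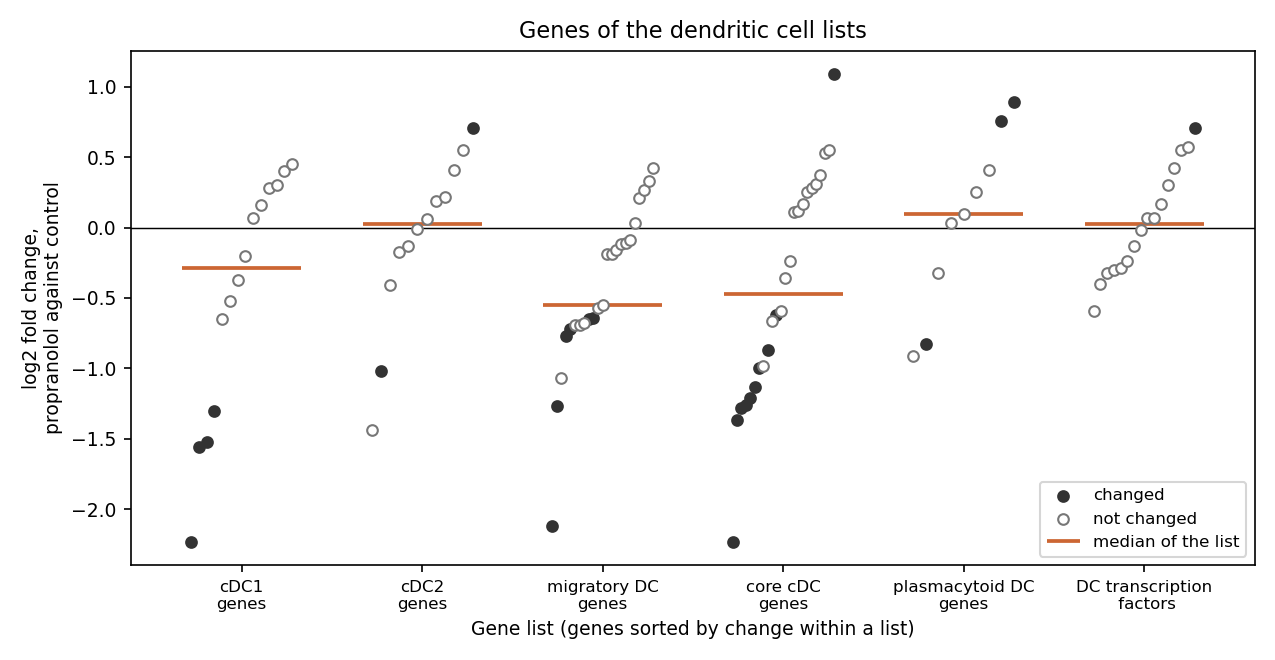
Log2 fold change, propranolol against control, of each tested gene in 6 lists of dendritic cell genes, sorted within a list, with filled points for changed genes (edgeR) and a line at the median of the list. The medians are -0.29 for cDC1, 0.03 for cDC2, -0.55 for migratory, -0.47 for core, 0.10 for plasmacytoid dendritic cell genes and 0.02 for transcription factors.

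Ligands and receptors of Xcr1, Flt3, Ccr7, Ccl17 and Ccl22 were read in the same libraries, with GM-CSF and its receptor chains, which act on dendritic cells but pair with none of the 10 genes. Xcl1, the ligand of Xcr1, made by NK and CD8+ T cells, had 282 and 428 counts in control and 143 and 22 counts in propranolol libraries, or 19.0, 17.1, 3.93 and 1.44 CPM. The groups were far apart, and propranolol replicate 2 was the lowest, as for Xcr1. The log2 fold change was -2.64 ± 0.34 (SE, edgeR adjusted p = 0.000341), and -2.34 with the GC trend removed (adjusted p = 0.00161). Flt3l, the ligand of Flt3, overlapped between groups, with 5.53 and 8.89 CPM in control and 5.17 and 6.02 CPM in propranolol libraries (-0.39 ± 0.28 SE, adjusted p = 0.299). Csf2ra, a receptor chain for GM-CSF, rose from 422 and 494 CPM to 1006 and 1327 CPM (1.35 ± 0.14 SE, adjusted p = 0.000129), and its partner chain Csf2rb had a log2 fold change of 0.44, below 1.5-fold. The others were too low to test. Ccl19, a ligand of Ccr7, had 0 counts in each library. Ccl21a, another ligand of Ccr7, had 1, 3, 1 and 0 counts, which are uncertain because near-identical copies of this gene exist. Ccr4, the receptor of Ccl17 and Ccl22, had 2, 7, 16 and 3 counts, and Csf2, which encodes GM-CSF, had 2, 11, 1 and 1 counts in control replicates 1 and 2 and propranolol replicates 1 and 2.

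For each of the 10 genes, the nearest of the 82 other tested genes of these lists was found, by the Euclidean distance of log2 CPM, centred on each gene, over the 4 libraries. It was Ap1s3 for Cd209a (0.11), Stat4 for Xcr1 (0.19), Cadm1 for Ccr7 (0.20), Adam19 for Fscn1 (0.23), Itgax for Batf3 (0.25), Ccl5 for Zbtb46 (0.27), Itgae for Ccl22 (0.30), Apol7c for Flt3 (0.38), Tlr3 for Clec9a (0.41) and Ffar2 for Ccl17 (0.57). The distance rests on 4 points per gene and is a description.

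Markers of other cells moved with the same libraries, and their counts stand beside the 15.6% of all tested genes that fell and the 12.2% that rose (4.97% and 7.64% with the GC trend removed). 8 NK cell markers summed to 152 and 156 CPM in control and 58.6 and 30.8 CPM in propranolol libraries, and 8 of the 8 fell, 6 with the GC trend removed. The largest changes were those of Klrd1 (-3.24), Klre1 (-2.79), Gzma (-1.89), Klrk1 (-1.88), Klrb1c (-1.83) and Ncr1 (-1.73), of which Klrk1 (-0.05) and Ncr1 (-1.30) did not pass with the GC trend removed. Most abundant per length were Prf1 (43.6, 52.4, 26.7 and 13.8 CPM) and Gzma (20.6, 16.2, 6.66 and 2.75 CPM). 10 T cell markers summed to 279 and 318 against 147 and 82.8 CPM, and 8 of the 10 fell (9 with the GC trend removed), with Trac (20.8, 20.7, 11.6 and 6.61 CPM) and Cd8a (71.0, 86.8, 29.4 and 13.4 CPM) most abundant per length. Their largest changes were those of Cd3g (-2.08), Cd8b1 (-1.86), Cd8a (-1.84), Cd2 (-1.52), Cd3e (-1.43) and Trac (-1.15). None of the markers in these lists had 0 counts. Propranolol replicate 2, the lowest library for Xcr1, Clec9a and Cd209a, was thus also the lowest for both lists, and their part in the changes of Xcr1, Clec9a, Cd209a and Xcl1 was not tested. The summed level of macrophage markers went the other way, with 32869 and 31298 CPM in control and 41605 and 40536 CPM in propranolol libraries. Much of this sum came from Apoe (0.50, with 10774, 9926, 13896 and 15356 CPM) and Lyz2 (0.28), and neither was called. C1qa (-0.18) and Itgam (-0.06) had negative log2 fold changes, and the other markers of the list had positive ones. Of these 12 markers, Csf1r (0.59) rose and 0 fell, and with the GC trend removed Csf1r was at 0.32 and none was called. Of 7 tested neutrophil markers, 5 rose with either normalization, namely S100a9 (2.04), S100a8 (1.33), Cxcr2 (1.31), Mmp9 (1.09) and Retnlg (0.79), while Csf3r (0.56) did not reach 1.5-fold, and the 10 of the list summed to 179 and 196 against 352 and 379 CPM. Ly6g and Camp had no counts in at least 1 library. Of 8 monocyte markers, which overlap in use with those of monocyte-derived dendritic cells, Plac8 (0.79), Chil3 (1.28) and F13a1 (0.62) rose and 0 fell by this rule, and the sums of 964 and 868 CPM in control and 1111 and 963 CPM in propranolol libraries overlapped. Ccr2, a chemokine receptor of monocytes named here after its values were seen, went the other way, with 454 and 397 CPM in control against 306 and 262 CPM in propranolol libraries (-0.58, edgeR adjusted p = 0.00249, not above 1.5-fold), and was at 0.36 with the GC trend removed. The 7 B cell markers, of which 3 were tested, summed to 18.5 and 16.4 against 21.6 and 20.8 CPM, where Ms4a1 (-2.67) and Ebf1 (-2.27) fell and Cd79b (0.78) rose, of which Ebf1 (-1.73) was still called with the GC trend removed. The 6 endothelial markers, of which 4 were tested, summed to 45.1 and 41.8 against 57.9 and 52.3 CPM, where Cdh5 (0.77) rose and Pecam1 (0.24) did not pass, and neither passed with the GC trend removed.

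**Figure D5:**
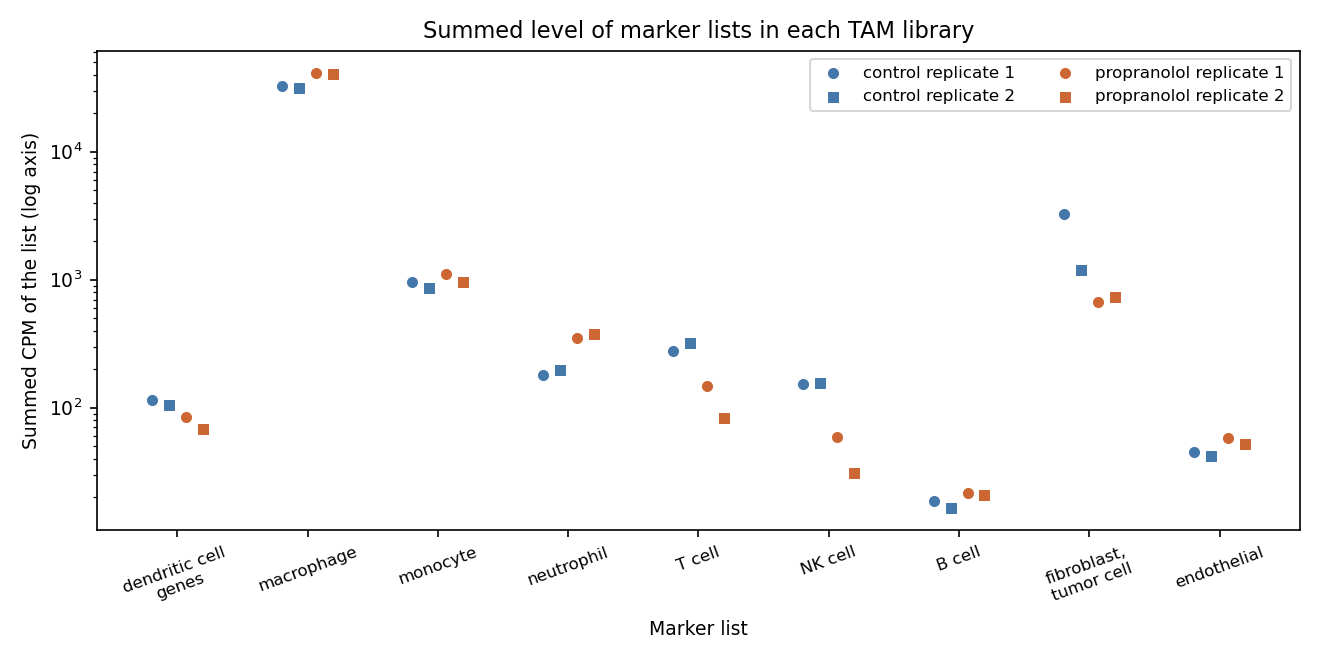
Summed level of the 10 dendritic cell genes and of marker lists of other cells in each library, in CPM on a log axis (blue control, orange propranolol; circles replicate 1, squares replicate 2). The dendritic cell genes, T cell markers and NK cell markers are lower in both propranolol libraries, macrophage and neutrophil markers are higher, and fibroblast and tumor cell markers are highest in control replicate 1.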

How the data were processed

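RNA sequencing counts of 4 libraries were analyzed. Per the labels and methods, the authors aligned reads to mm10 with STAR 2.7.1a, kept high-quality alignments with SAMtools 1.9, counted paired reads on exons with featureCounts 1.6.4, and deposited whole-number counts per gene without normalization. The GENCODE release and a strand option were not given in the sources used here. 54079 of 54146 genes matched GENCODE M21.

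Groups were compared with the edgeR 4.0.16 quasi-likelihood test (R 4.3.3, TMM factors, filterByExpr with a minimum count of 10) over 14688 genes, with Benjamini-Hochberg adjustment and no covariate. Standard errors came from the coefficient and the F statistic. Levels are CPM on TMM-scaled library sizes, and TPM from counts and exon lengths. Depth (13798249 to 39818103 counts) limits the precision of low genes. P-values measure the spread between 2 libraries per group. Replicates differed beyond sampling noise (chi-square per degree of freedom 7.56 in control, 9.83 in propranolol).

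The genes and all lists were chosen with earlier results of these data known, so no test over a list was made. Named from other lists were changed genes (6 with the largest changes where more) and the 2 most abundant by TPM averaged over all libraries. Also named were all genes of the list of ligands and receptors, and the nearest gene of each. Alternatives were DESeq2 1.42.0 size factors and Wald test, upper-quartile factors, no filter or a stricter one (in 1 group, no library under a CPM of 1), leaving out each library, replicate blocks, a GC correction (natural spline, 5 degrees of freedom, through offsets) with and without them, and a log2 fold change above 1.5. The steps were tested on simulated data.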

Additional observations from a re-analysis of the deposited data

How the results depend on the processing

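For the 10 dendritic cell genes, 103 values under the alternatives kept their direction and their side of the threshold, 12 no longer passed, 8 newly passed and 7 turned in sign. Over the 13 alternatives adjusted p ranged from 0.000943 to 0.171 for Xcr1, 0.0315 to 0.284 for Flt3, 0.00770 to 0.203 for Cd209a, 1.62e-05 to 0.298 for Fscn1 and 0.000741 to 0.542 for Ccl22. Without a filter on low counts, 3 genes of the list named for dendritic cell transcription factors were called in place of 1. Calls among the 10 dendritic cell genes numbered 4, with 2 under the GC correction, 1 at a log2 fold change above 1.5 and 2 to 5 with a library left out (2 without control replicate 1, which ends Cd209a and Fscn1). Over all genes, 4084 calls became 1851 with the GC correction, 2120 with it and the replicate block, and 728 above 1.5. The list of ligands and receptors is counted here among the dendritic cell lists. Over all dendritic cell lists, 26 became 17 and 5, and 22 to 34 with a library left out. The split of all calls moved from 1798 higher and 2286 lower to 1121 higher and 730 lower with the GC correction. With that correction, log2 fold changes were -0.67 for Xcr1 and -0.59 for Cd209a, neither past the threshold, and -0.23 for Batf3. By its own construction the bound of 1.5 leaves Xcr1 (-1.30), Cd209a (-1.02) and Fscn1 (-0.65) uncalled. Without a filter Fscn1 was at -0.57, under 1.5-fold. Flt3 passed with upper-quartile factors (-1.03) and with the stricter filter (-1.0). The cause was not tested.

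Replicate numbers were shared by the groups, but same-numbered libraries deviated together by a correlation of 0.169 over only 2 pairs, and no label says what a number marks, so the numbers were not taken as pairs. With the replicate block, 4362 genes were called over the table and 30 over the dendritic cell lists with the list of ligands and receptors. Of the 10 genes, 6 were called, with Flt3 (-0.98) and Ccl22 (-0.80) added. With the GC correction and the replicate block, Flt3 (-1.07) and Ccl22 (-0.87) passed, Xcr1 (-0.70) and Cd209a (-0.62) did not, and Batf3 was at -0.24.

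With a library left out, the one remaining in its group is taken to have the spread of the other group. Log2 fold changes then ranged from -1.86 to -0.93 for Xcr1, -1.72 to -1.15 for Clec9a (lost without control replicate 2, adjusted p = 0.0507, range over its alternatives 0.000172 to 0.0507), -1.18 to -0.69 for Flt3 (passed without control replicate 2), -0.68 to 0.09 for Zbtb46 (turned without propranolol replicate 2), -0.16 to 0.33 for Batf3 (turned to -0.06 without control replicate 1 and -0.16 without propranolol replicate 1), -1.27 to -0.75 for Cd209a (lost without control replicate 1 and, at -0.81, without propranolol replicate 2), -0.29 to -0.04 for Ccr7, -0.90 to -0.28 for Fscn1 (lost without control replicate 1), -1.25 to 0.41 for Ccl17 (turned to 0.05 without control replicate 2 and 0.41 without propranolol replicate 2) and -1.45 to -0.23 for Ccl22 (passed without propranolol replicate 1). With 2 libraries per group and as few as 24 counts in a library, a gene that missed the threshold is not shown to be equal between groups.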
